A study of Mus musculus with 36 samples.

Results

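Genes for collagens and for proteins typical of meningeal fibroblasts were followed in mouse brain over 6 times of day and 2 diets. The genes were taken by a rule on symbols, drawn up with earlier results of these data known: every collagen alpha chain whose symbol has the form Col, number, a, number, and 19 named genes, namely Lum, Dcn, Ogn, Fmod, Bgn, Igf2, Igfbp2, Slc6a13, Slc22a6, Aldh1a2, Foxc1, Foxd1, Fbln1, Mgp, Pcolce, Angptl2, Grem1, Cast and Crispld2. Of 63 matching genes among 24883 rows, 50 had a mean of at least 1 on the scale of FPKM rescaled to a sum of 1000000 per library, and these 50 are the members described here. They comprised 31 of 44 collagens and all 19 of the named genes. The member just inside the level was Col6a4 with a mean of 1.03, and the genes just outside it were Col24a1 with 0.993 and Col13a1 with 0.958. In all, 15173 rows reached that level and were tested.

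RNA was sequenced from a dissected region enriched for the suprachiasmatic nucleus (SCN), the hypothalamic seat of the central circadian clock, of adult C57BL/6J mice. All mice had been fed for 10 weeks, either on normal chow or on a high-fat diet, and no other treatment or allele is labelled. Each diet had 18 libraries, 3 at each of the time points 0, 4, 8, 12, 16 and 20, which the column headers give as zeitgeber time (ZT), the hours counted from lights on. Whether the 3 replicates in each group are different animals is not labelled, and the p-values therefore measure only how these samples scatter, which may be technical.

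Collagens are trimeric proteins of the extracellular matrix. Fibrillar collagens form the fibres of connective tissue, type IV collagens the meshwork of basement membranes around vessels and at the brain surface, and further types decorate fibres, form beaded filaments or span the cell membrane. In the brain, fibril-forming collagen is made mainly by fibroblasts of the meninges and of larger vessels, which also make small leucine-rich proteoglycans such as decorin and lumican, carry transporters such as Slc6a13 and Slc22a6, and make retinoic acid through Aldh1a2. The meninges cover the base of the brain close to the SCN.

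Deposited FPKM summed to 302899 to 432336 per library, and the number of reads behind them is not given in the sources used here, so no counting error could be attached to a value. Across genes, log2 values correlated at a median Pearson r of 0.97 within groups and 0.969 between groups. All 10 SCN neuron markers listed were detected, with summed values of 578 to 2863 under chow and 322 to 4470 under high-fat diet. Summed values of the genes listed as liver markers, Trf among them, had medians of 472 under chow and 484 under high-fat diet. They reached 5531 in replicate 1 of chow at ZT 0. In both replicate 1 of chow at ZT 4 and replicate 3 of high-fat diet at ZT 0 they reached 1507. What part of these sums is liver RNA was not tested. Replicate 2 of high-fat diet at ZT 8 held the highest value of 36.3% of all genes tested, against 2 of the 50 members, Cast and Col25a1. The diets were deposited as 2 separate tables, and diet cannot be told apart from anything else that differs between them.

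Promoter sequences were at hand in RefSeq (GRCm38.p6) for 41 of the 50 members. The 250 bases before the start are shown for Col3a1, Ogn and Angptl2, because these 3 members were among those whose values under the 2 diets separated in opposite directions at ZT 0 and ZT 12. Capitals mark matches to TATAAA, or to GGGCGG read on the other strand as CCGCCC. The windows lie on the plus strand at chr1:45311288-45311537 (Col3a1); chr13:49607765-49608014 (Ogn); chr2:33215711-33215960 (Angptl2).
Col3a1: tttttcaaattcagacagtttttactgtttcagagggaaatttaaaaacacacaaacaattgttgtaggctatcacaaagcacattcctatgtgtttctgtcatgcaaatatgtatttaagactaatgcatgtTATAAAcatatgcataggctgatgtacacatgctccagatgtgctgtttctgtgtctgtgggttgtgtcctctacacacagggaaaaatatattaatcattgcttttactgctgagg
Ogn: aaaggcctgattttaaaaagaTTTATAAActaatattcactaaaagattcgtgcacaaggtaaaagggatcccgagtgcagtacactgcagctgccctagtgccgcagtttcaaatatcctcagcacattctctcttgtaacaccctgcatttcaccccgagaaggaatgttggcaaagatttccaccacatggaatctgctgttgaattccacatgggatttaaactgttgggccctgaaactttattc
Angptl2: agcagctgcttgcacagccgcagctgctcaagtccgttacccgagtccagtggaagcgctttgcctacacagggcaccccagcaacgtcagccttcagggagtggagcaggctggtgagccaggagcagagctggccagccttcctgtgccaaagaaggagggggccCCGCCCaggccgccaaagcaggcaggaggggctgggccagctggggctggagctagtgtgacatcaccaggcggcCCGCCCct

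Col3a1 and Ogn held TATAAA at 117 and 227 bases before the start, and in Ogn the overlapping match on the other strand, TTTATA, began at 229. Angptl2 held no TATAAA but CCGCCC at 83 and 8 bases before the start. Over the 53 windows of the 41 members, TATAAA or its reverse complement was in 3, against 12.4% of all 32851 windows of that length. GGGCGG, the core of a GC box, was in 32 of 53 (all windows 32.7%), CCAAT in 21 of 53 (all windows 33.9%) and the E-box CACGTG in 4 of 53 (all windows 6.02%), each read on both strands. GGGCGG was present in windows of Angptl2, Bgn and Pcolce and these letters were not in those of Ogn, Fmod and Col3a1. Members not in the table are Col12a1, Col1a1, Col26a1, Col2a1, Col5a2, Col9a3, Dcn, Lum and Mgp.

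By level per length of transcript, the most abundant members were secreted proteins. Mgp, the matrix Gla protein that inhibits calcification, had the highest mean at 103 and ranged from 28.4 to 306 over the 36 libraries. Igf2, an imprinted growth factor made by meninges and choroid plexus, followed at 50.6 (13.8 to 195). The transmembrane collagen Col25a1, a neuronal protein found in amyloid plaques, had 43 (22.6 to 59.9), with a narrower range than Mgp and Igf2. Igfbp2, a binding protein of insulin-like growth factors, had 26.1 (6.85 to 94.8), and Dcn, encoding the fibril-binding proteoglycan decorin, 25.9 (10.6 to 72.2).

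Among the remaining collagens, 2 basement membrane and 3 fibril-associated chains had higher means than all 10 fibrillar chains. Col4a2 and Col4a1, the 2 chains of the common type IV trimer, had means of 24 and 13.7. Col9a2, Col16a1 and Col9a3, fibril-associated (FACIT) collagens, had 22, 16 and 14.3. The highest fibrillar chains were Col1a2 at 12.2 and Col11a2 at 9.84, and the 10 fibrillar members ranged down to 1.37 for Col5a1. Col6a1 and Col6a2, chains of the beaded-filament collagen VI, had 10.5 and 6.26. The second transmembrane member, Col23a1, had 4.59. The transporter for GABA and taurine Slc6a13 had 13.7 and the retinoic acid enzyme Aldh1a2 10.1, ahead of the anion transporter Slc22a6 (3.46) and the forkhead factors Foxc1 (3.05) and Foxd1 (2.58). Cast, the calpain inhibitor calpastatin, had 6.55.

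The members varied more between libraries of the same group than most genes did. Their median within-group SD of log2(value + 1) was 0.405, against 0.189 over all genes tested, and 49 of the 50 members lay above that overall median. Replicate 3 of high-fat diet at ZT 0 held the highest value of 25 members, among them Dcn, Lum, Igf2, Mgp, Col1a1, Col1a2 and Col3a1, against 5.14% of all genes tested. In that library the summed mural and smooth muscle markers reached 505, the highest of all 36 libraries, and it is 1 of the 3 libraries highest in liver markers. The part of vascular or liver RNA in these values was not tested. Replicate 1 of chow at ZT 20 held the lowest value of 9 members, Aldh1a2, Angptl2, Bgn, Col3a1, Foxc1, Foxd1, Mgp, Ogn and Slc22a6.

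A different set of members was lowest in replicate 1 of high-fat diet at ZT 12, and all 15 of them were collagens: Col2a1, Col4a1, Col4a2, Col6a2, Col6a3, Col6a4, Col7a1, Col9a3, Col11a1, Col11a2, Col15a1, Col16a1, Col18a1, Col19a1 and Col27a1. Over all genes tested, this library held the lowest value of 6.59%. Col11a1 stood at 1.28 there, against 6.45 and 10.4 in the other libraries of the group. The 15 collagens had a median transcript length of 6048 nt and a GC content of 59.2%, against 4182 nt and 53.7% in the other 35 members. In the same library, genes of at least 4000 nt with at least 55% GC lay a median of 0.18 (log2) below their own median over libraries and genes under 2000 nt 0.01 above it. In replicate 2 of chow at ZT 4 the same long, GC-rich genes lay 0.26 below. Other meningeal fibroblast genes summed in replicate 1 of high-fat diet at ZT 12 to 225, within the range of 154 to 534 under high-fat diet but the lowest of its group (225 to 292). Mural and smooth muscle markers summed there to 109 and oligodendrocyte and precursor markers to 3840, each the lowest of all 36 libraries. Blood markers, at 5293, and ependymal and tanycyte markers, at 402, were the highest of the group. The part of transcript length, GC content or cell types in these values was not tested. Col6a1 behaved like neither set, at 46.9 in replicate 3 of high-fat diet at ZT 16 and 37.7 in replicate 3 of chow at ZT 12, against a median of 7.19.

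**Figure D1:**
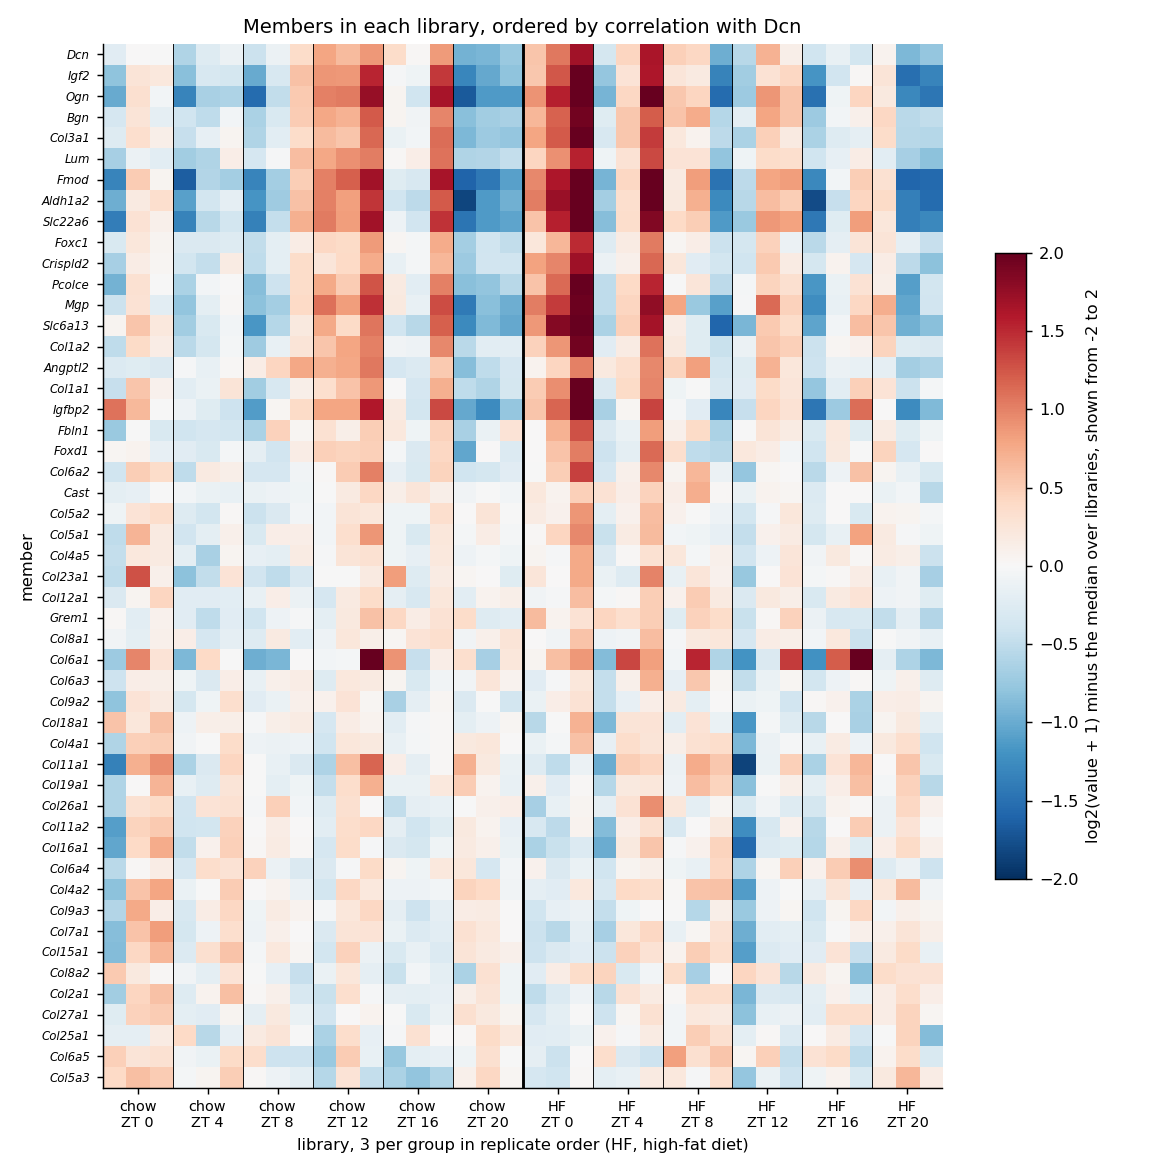
Heat map of the 50 members (rows, ordered by their correlation with Dcn) in the 36 libraries (columns, 3 per diet and time point), coloured by log2(value + 1) minus the member's median over libraries. The upper rows are high together in chow at ZT 12 and in high-fat diet at ZT 0, most of all in its replicate 3, while the collagens of the lower rows are low in replicate 1 of high-fat diet at ZT 12. Single libraries of other groups are high in the upper rows as well, such as replicate 3 of high-fat diet at ZT 4 and replicate 3 of chow at ZT 16.

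The members fell along a range from those that varied with Dcn across libraries to those that did not. Of the other 49 members, 17 had a Pearson r with Dcn of at least 0.8 over the 36 libraries, against 119 of all 15173 rows tested, these 17 included (0.784%). The closest were Igf2 (r = 0.95), Ogn (0.95), Bgn (0.94), Col3a1 (0.94), Lum (0.93) and Fmod (0.93). For Igf2, Spearman's rho was 0.95, and both coefficients had an adjusted permutation p of 2.45e-05 and 2.58e-05 over the 49 relations (100000 resamples, the smallest these can give). Without the 2 libraries farthest from the median of Dcn, replicates 3 of high-fat diet at ZT 0 and ZT 4, 15 members still had an r of at least 0.8, and Igf2 had 0.94. Taken as deviations from the means of the 12 groups, 15 members had an r of at least 0.8, and Igf2 had 0.90. In all, 30 of the 49 passed an adjusted permutation p under 0.05 for Pearson's r and 29 for Spearman's rho. The permutation test was run on members only, so no share of all genes can be set beside these counts. It also shuffled libraries across the 12 groups, so differences between groups can add to a pass. Grem1, which passed, had an r of 0.47, but of 0.0002 as deviations from the group means.

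By role, the 4 other proteoglycans had an r of 0.93 to 0.95, and 4 of the 5 transporters, enzyme and transcription factors had 0.90 to 0.93, with Foxd1 at 0.77. Of the 8 other secreted proteins, 6 reached 0.8, namely Igf2, Crispld2, Pcolce, Mgp, Angptl2 and Igfbp2, while Fbln1, a basement membrane glycoprotein, had 0.79 and the BMP antagonist Grem1 0.47. Among fibrillar collagens, the chains of types I and III varied with Dcn (Col3a1 0.94, Col1a2 0.87, Col1a1 0.83), type V less closely (Col5a2 0.62, Col5a1 0.58), and the cartilage-type chains Col11a1, Col11a2, Col27a1 and Col2a1 between -0.10 and 0.11. Col5a3, the third type V chain, had the lowest r of all members at -0.31 (rho = -0.36; adjusted permutation p = 0.0988 and 0.0527), and -0.44 without the 2 extreme libraries. The basement membrane chains Col4a1 and Col4a2 had 0.20 and 0.01. No FACIT, transmembrane, beaded-filament or network collagen reached 0.8, the highest being Col6a2 at 0.75.

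**Figure D2:**
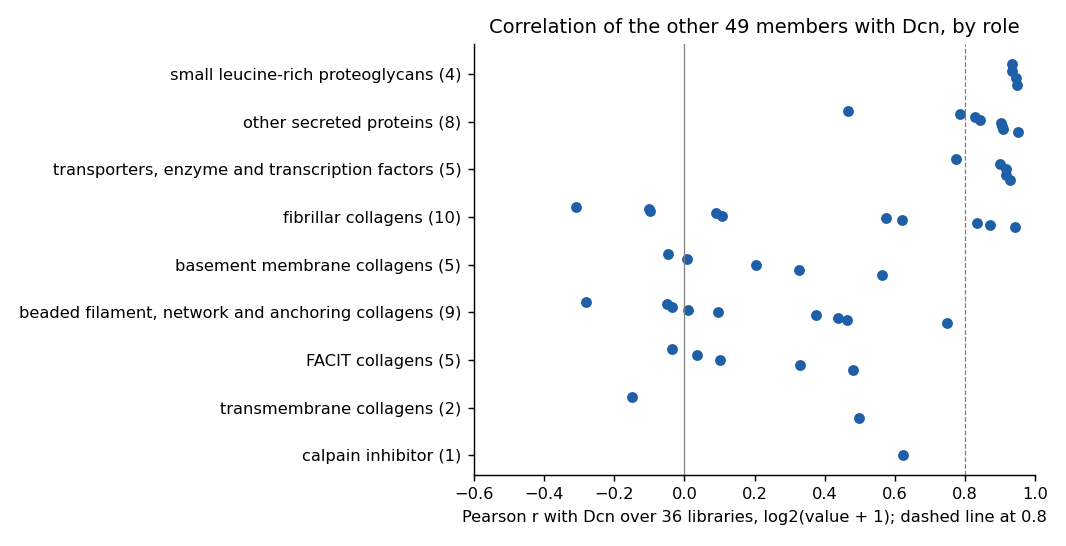
Pearson correlation with Dcn over 36 libraries (x axis) for the other 49 members, 1 point each, grouped by role (y axis, number of members in brackets). Proteoglycans, most other secreted proteins and transporters lie right of the dashed line at 0.8, and of the collagens only Col3a1, Col1a2 and Col1a1 do.

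Outside the members, the 10 rows most like Dcn were Osr1 (r = 0.94), Slc13a4 (0.93), Slc6a20a (0.93), Islr, Crabp2, Spp1, Fgl2, Efemp1, Rcn3 and Tfpi (down to 0.91 for Tfpi). Of 20 other genes listed as meningeal fibroblast genes, 11 reached 0.8, with a median of 0.86. Median r was 0.50 over 33 other matrix and basement membrane proteins, 0.43 over 15 collagen receptors and degrading enzymes, 0.19 over 24 enzymes of collagen synthesis, 0.72 over 12 mural and smooth muscle markers, 0.28 over 14 endothelial markers, 0.12 over 6 choroid plexus markers and 0.01 over 8 neuron markers. All of these rows share libraries and their scaling, and members that vary together are not independent of each other in the counts given here. In bulk tissue, fewer cells of a type and less RNA per cell cannot be told apart.

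Of the members, 5 pairs lie within 100000 bases of each other in the genome (GRCm38 coordinates). Dcn (chromosome 10, 97479609 to 97518143) and Lum (97565128 to 97572703), on the same strand and 46984 bases apart, correlated at r = 0.93 and rho = 0.91 over the 36 libraries (adjusted permutation p = 1.67e-05 for both over the 5 pairs). Col4a1 and Col4a2 are transcribed away from each other on chromosome 8, their genes overlapping by 22 bases at their starts (11198423 to 11312826 and 11312805 to 11449287), and correlated at r = 0.92 and rho = 0.89 (adjusted permutation p = 1.67e-05 for both). Col3a1 and Col5a2 correlated at 0.72 (rho = 0.59), with 0.53 without the 2 extreme libraries, and Col6a1 and Col6a2 at 0.71 (rho = 0.74). Adjusted permutation p was 2.5e-05 and 1.67e-05 for r, and 0.000275 and 1.67e-05 for rho, in these pairs. A raw p of 1e-05 is the smallest that the resamples can give. Col6a4 and Col6a5, only 28810 bases apart on the same strand, had r = -0.05 and rho = -0.02 (adjusted permutation p = 0.752 and 0.916).

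The course over the day is given next by role, as means of the 3 libraries at ZT 0, 4, 8, 12, 16 and 20 in that order, for the most abundant members of each role and those with the smallest p-values. Members given library by library further on are left to their comparison.

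Among small leucine-rich proteoglycans, Dcn had means of 20.8, 17.4, 21.6, 37.9, 30.3 and 11.6 under chow (SD 0.971 to 9.12, n = 3 each). Under high-fat diet Dcn had 50.6, 38.8, 23.6, 24.7, 17.6 and 15.6 (SD 1.75 to 27.6). Dcn was thus highest at ZT 12 and lowest at ZT 20 under chow, and highest at ZT 0 and lowest at ZT 20 under high-fat diet. Bgn had means of 15.4, 12.9, 15.4, 31.5, 21.6 and 9.39 under chow (SD 0.679 to 9.73, n = 3 each). Under high-fat diet Bgn had 42.8, 25.5, 20.9, 22.3, 14.1 and 14.6 (SD 4.26 to 19.5). Bgn was thus highest at ZT 12 and lowest at ZT 20 under chow, and highest at ZT 0 and lowest at ZT 16 under high-fat diet. The remaining members of this role, Fmod and Ogn, had overall means of 10.5 to 15.9.

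Among other secreted proteins, Mgp had means of 73.3, 64, 65.1, 174, 118 and 37 under chow (SD 7.68 to 66, n = 3 each). Under high-fat diet Mgp had 224, 142, 72.5, 119, 68.7 and 75.5 (SD 35.7 to 111). Mgp was thus highest at ZT 12 and lowest at ZT 20 under chow, and highest at ZT 0 and lowest at ZT 16 under high-fat diet. Igf2 had means of 40.4, 29.4, 38.6, 91.7, 63.9 and 19.8 under chow (SD 3.54 to 41.7, n = 3 each). Under high-fat diet Igf2 had 118, 67.8, 37.3, 43.6, 30.4 and 26.6 (SD 12.1 to 69.2). Igf2 was thus highest at ZT 12 and lowest at ZT 20 under chow, and highest at ZT 0 and lowest at ZT 20 under high-fat diet. The remaining members of this role, Crispld2, Fbln1, Igfbp2 and Pcolce, had overall means of 2.88 to 26.1.

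Among transporters, enzyme and transcription factors, Slc6a13 had means of 13.1, 8.26, 7.76, 18.8, 13.5 and 4.61 under chow (SD 0.763 to 10.6, n = 3 each). Under high-fat diet Slc6a13 had 40.5, 19.1, 7.88, 11.6, 10.5 and 8.86 (SD 4.61 to 20.4). Slc6a13 was thus highest at ZT 12 and lowest at ZT 20 under chow, and highest at ZT 0 and lowest at ZT 8 under high-fat diet. Aldh1a2 had means of 7.24, 5.05, 6.22, 17.4, 9.79 and 2.56 under chow (SD 1.04 to 7.96, n = 3 each). Under high-fat diet Aldh1a2 had 29.2, 16, 8.07, 9.31, 5.7 and 4.79 (SD 3.93 to 15.8). Aldh1a2 was thus highest at ZT 12 and lowest at ZT 20 under chow, and highest at ZT 0 and lowest at ZT 20 under high-fat diet. Foxc1 had means of 2.71, 2.04, 2.32, 4.45, 3.51 and 1.58 under chow (SD 0.0385 to 1.42, n = 3 each). Under high-fat diet Foxc1 had 5.86, 3.94, 2.52, 2.79, 2.4 and 2.45 (SD 0.70 to 3.18). Foxc1 was thus highest at ZT 12 and lowest at ZT 20 under chow, and highest at ZT 0 and lowest at ZT 16 under high-fat diet. The remaining members of this role, Foxd1 and Slc22a6, had overall means of 2.58 to 3.46.

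Among fibrillar collagens, Col1a2 had means of 10.4, 7.97, 8.98, 18.1, 13.1 and 7.9 under chow (SD 1.14 to 6.35, n = 3 each). Under high-fat diet Col1a2 had 24.8, 14.1, 8.99, 12.9, 9.39 and 10.1 (SD 1.9 to 14.1). Col1a2 was thus highest at ZT 12 and lowest at ZT 20 under chow, and highest at ZT 0 and lowest at ZT 8 under high-fat diet. Col11a2 had means of 11.1, 9.74, 10.5, 11.8, 8.21 and 10.4 under chow (SD 0.706 to 6.0, n = 3 each). Under high-fat diet Col11a2 had 8.39, 9.71, 9.88, 7.42, 10.5 and 10.5 (SD 1.66 to 4.16). Col11a2 was thus highest at ZT 12 and lowest at ZT 16 under chow, and highest at ZT 16 and lowest at ZT 12 under high-fat diet. The remaining members of this role, Col11a1, Col1a1, Col27a1, Col2a1, Col5a1 and Col5a2, had overall means of 1.37 to 8.04.

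Among basement membrane collagens, Col4a2 had means of 28, 24.5, 21.8, 24, 20.6 and 26.7 under chow (SD 0.486 to 14.1, n = 3 each). Under high-fat diet Col4a2 had 21.2, 24.9, 29.6, 17.3, 21.7 and 27.1 (SD 3.79 to 7.02). Col4a2 was thus highest at ZT 0 and lowest at ZT 16 under chow, and highest at ZT 8 and lowest at ZT 12 under high-fat diet. Col4a1 had means of 15.1, 14.1, 12, 13.3, 12.5 and 14.5 under chow (SD 0.019 to 5.93, n = 3 each). Under high-fat diet Col4a1 had 14.8, 14.7, 15.7, 10.4, 12.8 and 13.8 (SD 1.41 to 4.55). Col4a1 was thus highest at ZT 0 and lowest at ZT 8 under chow, and highest at ZT 8 and lowest at ZT 12 under high-fat diet. Col18a1 had means of 10.2, 7.3, 7.55, 6.92, 6.7 and 6.6 under chow (SD 0.537 to 1.53, n = 3 each). Under high-fat diet Col18a1 had 7.84, 6.87, 7.01, 5.05, 5.22 and 7.19 (SD 1.09 to 3.84). Col18a1 was thus highest at ZT 0 and lowest at ZT 20 under chow, and highest at ZT 0 and lowest at ZT 12 under high-fat diet. The remaining members of this role, Col15a1 and Col4a5, had overall means of 2.76 to 4.98.

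Among beaded filament, network and anchoring collagens, Col6a1 had means of 9.34, 6.8, 4.57, 17.2, 9.06 and 7.37 under chow (SD 2.28 to 17.7, n = 3 each). Under high-fat diet Col6a1 had 11, 12.2, 11.3, 9.62, 22.5 and 4.66 (SD 1.45 to 22.5). Col6a1 was thus highest at ZT 12 and lowest at ZT 8 under chow, and highest at ZT 16 and lowest at ZT 20 under high-fat diet. Col6a2 had means of 6.62, 5.42, 4.57, 8.78, 5.75 and 4.27 under chow (SD 0.334 to 3.28, n = 3 each). Under high-fat diet Col6a2 had 9.92, 7.35, 6.82, 4.76, 5.86 and 5.02 (SD 0.745 to 5.38). Col6a2 was thus highest at ZT 12 and lowest at ZT 20 under chow, and highest at ZT 0 and lowest at ZT 12 under high-fat diet. The remaining members of this role, Col26a1, Col6a3, Col6a4, Col6a5, Col7a1, Col8a1 and Col8a2, had overall means of 1.03 to 5.75.

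Among FACIT collagens, Col9a2 had means of 22.1, 22.7, 21.6, 25.2, 19.2 and 19.6 under chow (SD 2.29 to 8.3, n = 3 each). Under high-fat diet Col9a2 had 24.7, 20.6, 23, 19.9, 20.7 and 24.7 (SD 0.872 to 5.5). Col9a2 was thus highest at ZT 12 and lowest at ZT 16 under chow, and highest at ZT 0 and lowest at ZT 12 under high-fat diet. Col16a1 had means of 19.1, 17.3, 17.2, 16.8, 13.7 and 17.1 under chow (SD 0.992 to 10.6, n = 3 each). Under high-fat diet Col16a1 had 11.8, 17.1, 18.7, 10.7, 14 and 19 (SD 1.63 to 8.58). Col16a1 was thus highest at ZT 0 and lowest at ZT 16 under chow, and highest at ZT 20 and lowest at ZT 12 under high-fat diet. Col9a3 had means of 16.6, 15.6, 15, 16.8, 11.9 and 15.6 under chow (SD 0.962 to 7.87, n = 3 each). Under high-fat diet Col9a3 had 12.2, 12.6, 13.1, 12.1, 15.1 and 14.8 (SD 0.863 to 4.39). Col9a3 was thus highest at ZT 12 and lowest at ZT 16 under chow, and highest at ZT 16 and lowest at ZT 12 under high-fat diet. Col12a1 had means of 1.51, 1.01, 1.29, 1.51, 1.23 and 1.34 under chow (SD 0.0196 to 0.614, n = 3 each). Under high-fat diet Col12a1 had 1.71, 1.66, 1.83, 1.38, 1.47 and 1.14 (SD 0.127 to 0.771). Col12a1 was thus highest at ZT 12 and lowest at ZT 4 under chow, and highest at ZT 8 and lowest at ZT 20 under high-fat diet. The remaining member of this role, Col19a1, had an overall mean of 1.47.

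Among transmembrane collagens, Col25a1 had means of 40.8, 40.6, 46.9, 39.6, 45.5 and 49.2 under chow (SD 4.3 to 13.9, n = 3 each). Under high-fat diet Col25a1 had 37, 44.5, 51.1, 38.3, 41.1 and 40.9 (SD 1.16 to 17.8). Col25a1 was thus highest at ZT 20 and lowest at ZT 12 under chow, and highest at ZT 8 and lowest at ZT 0 under high-fat diet. Col23a1 had means of 6.42, 3.41, 3.02, 4.54, 5.61 and 4.09 under chow (SD 0.27 to 4.78, n = 3 each). Under high-fat diet Col23a1 had 5.87, 5.62, 4.59, 3.98, 4.5 and 3.4 (SD 0.359 to 3.42). Col23a1 was thus highest at ZT 0 and lowest at ZT 8 under chow, and highest at ZT 0 and lowest at ZT 20 under high-fat diet.

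Rhythms were fitted as a 24 h cosine to log2(value + 1) with limma, a linear model fitted to all genes at once, and a gene was called where its p, adjusted by Benjamini-Hochberg over all genes tested, was under 0.05. Fold changes on this scale understate the change of low genes. Under normal chow, 3 members followed a 24 h rhythm at an adjusted p under 0.05 in limma, out of 50, against 0.845% of all genes tested: Angptl2, Lum and Col5a3. A further 15 had an unadjusted p under 0.05, making 18 of 50 against 18.2% of all genes. The median fitted peak-to-trough difference was 0.41 (log2) over the members and 0.19 over all genes. By role, the 18 included all 5 proteoglycans, 7 of 8 other secreted proteins, 2 of the 5 transporters, enzyme and transcription factors, Cast, and 3 of 31 collagens (Col1a2, Col5a3 and Col8a1). Without replicate 3 of chow at ZT 12, 8 members had an unadjusted p under 0.05, and with the mean of the endothelial and mural markers as a covariate 4 had, with 1 called.

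Angptl2, a secreted angiopoietin-like protein (chromosome 2, 33216069 to 33247717, plus strand), stood at 1.9, 1.97 and 1.89 in the 3 chow libraries at ZT 0. It had 2.48, 2.16 and 2.56 at ZT 4, 2.91, 3.75 and 5.0 at ZT 8 and 4.77, 4.99 and 6.28 at ZT 12. It then had 1.78, 1.92 and 4.07 at ZT 16 and 0.957, 1.48 and 1.79 at ZT 20. The ZT 12 libraries did not overlap with those at ZT 0, 4, 16 or 20, and the ZT 20 libraries lay below all of ZT 0 to 12 and overlapped with ZT 16 alone. Angptl2 rose and fell 2.35-fold from trough to peak, with the fitted peak at ZT 10.2 ± 0.596 (SE, n = 18 libraries; limma unadjusted p = 2.27e-05, adjusted p = 0.0156). Its call held without each library in turn, with adjusted p from 0.0124 to 0.0328. Its gene lies on the opposite strand within Ralgps1, and whether the authors' quantification used strand is not given in the sources used here.

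Lum, encoding the proteoglycan lumican (chromosome 10, 97565128 to 97572703, plus strand), had 1.45, 2.6 and 2.37 at ZT 0, 1.41, 1.55 and 3.25 at ZT 4 and 2.06, 2.84 and 4.97 at ZT 8 under chow. At ZT 12 it had 5.66, 6.31 and 6.88, at ZT 16 2.94, 3.28 and 7.23 and at ZT 20 1.57, 1.59 and 1.79. All 3 libraries of ZT 12 lay above all of ZT 0, 4, 8 and 20. Lum rose and fell 2.47-fold from trough to peak, with the fitted peak at ZT 12.3 ± 0.766 (SE, n = 18 libraries; limma unadjusted p = 0.00041, adjusted p = 0.0485). The call was lost without any 1 of 16 of the 18 chow libraries (adjusted p up to 0.0959) and without the 3 libraries highest in liver markers (adjusted p = 0.0728), a setting chosen after seeing the data.

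Col5a3, a fibrillar chain of type V (chromosome 9, 20770050 to 20815067, minus strand), ran opposite to the other 2. It had 4.36, 5.17 and 4.79 at ZT 0, 2.95, 3.25 and 4.74 at ZT 4 and 3.14, 2.81 and 2.55 at ZT 8 under chow. It had 1.75, 3.92 and 1.92 at ZT 12 and 1.63, 1.36 and 1.67 at ZT 16 and stood at 3.38, 4.43 and 3.17 at ZT 20. The libraries at ZT 16 were the lowest of all chow groups and those at ZT 0 overlapped only with ZT 4 and ZT 20. Its change was 1.92-fold from trough to peak, with the fitted peak at ZT 1.37 ± 0.763 (SE, n = 18 libraries; limma unadjusted p = 0.00039, adjusted p = 0.0485). This call, too, was lost without any 1 of 16 chow libraries (adjusted p up to 0.0969).

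Of the 18 members with an unadjusted p under 0.05, 17 had a fitted chow peak between ZT 10.2 (Angptl2) and ZT 16.3 (Col8a1), with Col5a3 as the exception. Cast had the smallest p after the called members and was fitted at 1.27-fold from trough to peak, with the fitted peak at ZT 14.3 ± 0.939 (SE, n = 18 libraries; limma unadjusted p = 0.00283, adjusted p = 0.103). Dcn had 37.9 ± 3.21 (SD, n = 3) at ZT 12 and 11.6 ± 0.971 at ZT 20, and its rhythm was 2.11-fold from trough to peak, with the fitted peak at ZT 11.9 ± 0.997 (SE, n = 18 libraries; limma unadjusted p = 0.00469, adjusted p = 0.125). The largest fitted chow rhythms were those of Fmod (3.45-fold), Ogn (3.33-fold) and Slc22a6 (3.14-fold), none of which was called (limma adjusted p = 0.215, 0.208 and 0.21).

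Among the genes listed around collagen, chow rhythms were called for P4ha1, a subunit of the prolyl hydroxylase that stabilises collagen, 1 of 24 synthesis enzymes (0.69 from trough to peak on the log2 scale, peak ZT 19.7, limma adjusted p = 0.0156), and for Mmp14, a membrane collagenase, 1 of 14 receptors and degrading enzymes (0.75, peak ZT 0.93, limma adjusted p = 0.0181). None of 32 other matrix proteins and none of 18 other meningeal fibroblast genes was called by limma, with 9 and 7 at an unadjusted p under 0.05. The collagen chaperone Serpinh1 had a fitted peak at ZT 19 (limma adjusted p = 0.118). The fitted peaks of P4ha1, Serpinh1 and Mmp14 all lay outside the span in which those 17 members peaked.

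Under high-fat diet no member was called rhythmic by limma (0 of 50, against 0.0728% of all genes tested). Of the 50, 4 had an unadjusted p under 0.05, Grem1, Cast, Angptl2 and Col3a1, against 8.64% of all genes. The median fitted peak-to-trough difference was 0.44 (log2) over the members, against 0.21 over all genes. Without replicate 1 of high-fat diet at ZT 4, 14 members had an unadjusted p under 0.05.

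Grem1 (chromosome 2, 113746164 to 113758646, minus strand), which binds and blocks bone morphogenetic proteins, had 3.55, 2.08 and 2.59 at ZT 0, 2.96, 2.68 and 3.12 at ZT 4 and 1.48, 3.02 and 2.76 at ZT 8 under high-fat diet. It had 1.14, 1.98 and 3.04 at ZT 12, 1.7, 1.34 and 1.37 at ZT 16 and 1.07, 1.57 and 0.95 at ZT 20. All libraries of ZT 0 and ZT 4 lay above all of ZT 16 and ZT 20. The fit was 1.71-fold from trough to peak, with the fitted peak at ZT 4.85 ± 0.948 (SE, n = 18 libraries; limma unadjusted p = 0.00307, adjusted p = 0.35). Under chow Grem1 was lowest at ZT 4, with 1.51, 1.05 and 1.5, and had 2.91, 2.23 and 2.59 at ZT 16.

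Col3a1 (chromosome 1, 45311538 to 45349706, plus strand), the fibrillar chain of soft connective tissue, had 4.33, 6.25 and 15.2 at ZT 0 of high-fat diet, 1.47, 3.5 and 7.2 at ZT 4 and 2.58, 2.25 and 1.15 at ZT 8. It had 1.01, 3.31 and 2.52 at ZT 12, 1.01, 1.59 and 1.74 at ZT 16 and 3.0, 1.1 and 1.09 at ZT 20. Only ZT 0 stood above all libraries of ZT 8, 12, 16 and 20. The fit was 2.56-fold from trough to peak, with the fitted peak at ZT 1.79 ± 1.22 (SE, n = 18 libraries; limma unadjusted p = 0.0198, adjusted p = 0.515). The fit for Cast was 1.46-fold from trough to peak, with the fitted peak at ZT 5.17 ± 1.04 (SE, n = 18 libraries; limma unadjusted p = 0.00634, adjusted p = 0.415). For Angptl2 it was 1.85-fold from trough to peak, with the fitted peak at ZT 5.3 ± 1.19 (SE, n = 18 libraries; limma unadjusted p = 0.0166, adjusted p = 0.504).

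**Figure D3:**
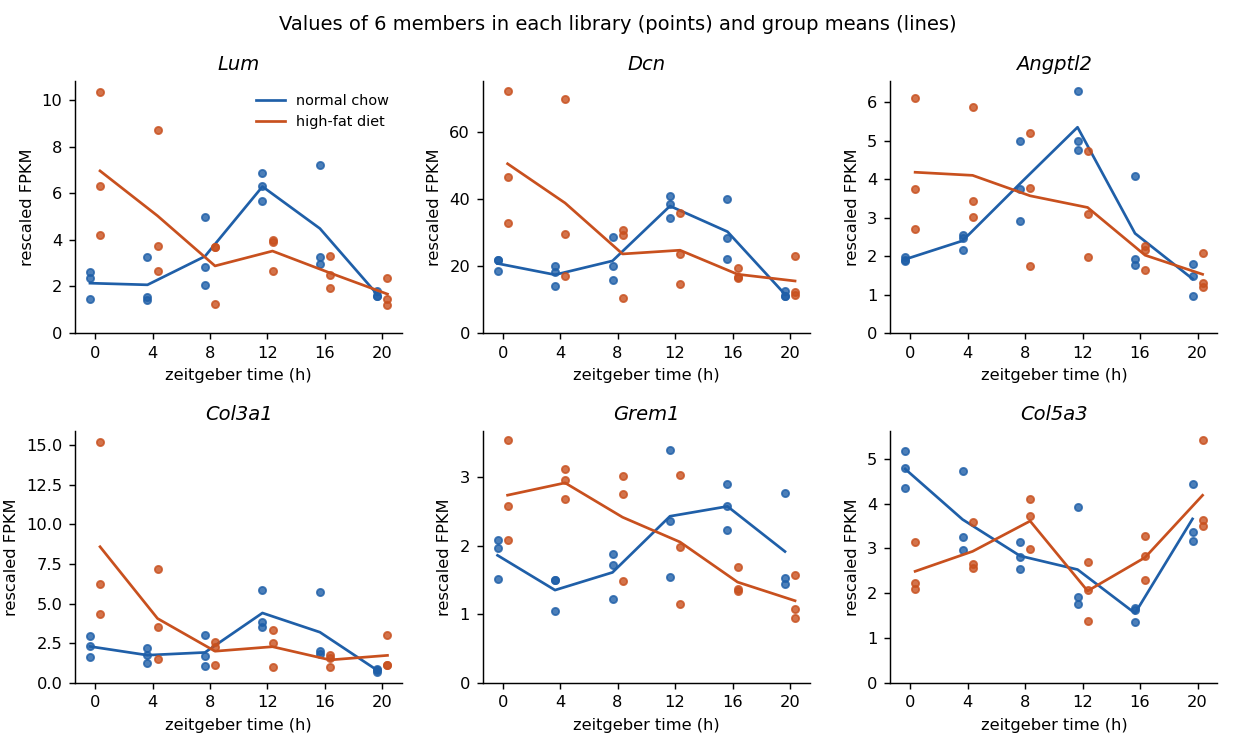
Rescaled FPKM (y axis) of Lum, Dcn, Angptl2, Col3a1, Grem1 and Col5a3 against zeitgeber time (x axis), with 1 point per library and lines through the means of the 3 libraries of each group, for normal chow and high-fat diet. Under chow Lum, Dcn, Angptl2 and Col3a1 are highest at ZT 12 and under high-fat diet at ZT 0, whereas Col5a3 under chow is highest at ZT 0 and lowest at ZT 16.

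The rhythms of the 2 diets were then compared in 1 fit over all 36 libraries. No member passed an adjusted p under 0.05 in limma, and neither did any other gene (0.00% of all genes tested), the smallest adjusted p being 0.357. At an unadjusted p under 0.05 there were 24 of 50 members, against 13.2% of all genes. They comprised all 5 proteoglycans, 7 of 8 other secreted proteins, 4 of the 5 transporters, enzyme and transcription factors, Cast, and 7 of 31 collagens (Col1a1, Col1a2, Col3a1, Col5a2, Col5a3, Col6a5 and Col8a1). No basement membrane, FACIT or transmembrane collagen was among them. The count was 18 without replicate 3 of high-fat diet at ZT 0, 10 without the 3 libraries highest in liver markers, a setting chosen after seeing the data, and 5 with the mean of the endothelial and mural markers as a covariate.

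The smallest p-values belonged to Grem1, Cast, Lum, Angptl2, Col3a1, Dcn, Bgn and Foxc1, with unadjusted p of 7.23e-05, 0.00011, 0.000809, 0.00289, 0.00293, 0.00319, 0.00575 and 0.00577 in limma and an adjusted p of 0.357 for each. Of the 24, 21 had a fitted peak between ZT 10.2 and ZT 16.3 under chow and between ZT 0.802 and ZT 5.3 under high-fat diet, and the median shift between the fitted peaks of the 24 was 9.61 h. Dcn peaked at ZT 11.9 under chow and ZT 2.98 under high-fat diet, Lum at ZT 12.3 and ZT 3.29, Foxc1 at ZT 12.6 and ZT 1.57, and Angptl2, the earliest of them under chow, at ZT 10.2 and ZT 5.3. A fitted peak is loosely set where a rhythm is not called, with an SE of 1.5 h for Dcn under high-fat diet. The 3 exceptions were Col5a3, Col6a5 and Col5a2, with chow peaks at ZT 1.37, 0.789 and 18.6.

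**Figure D4:**
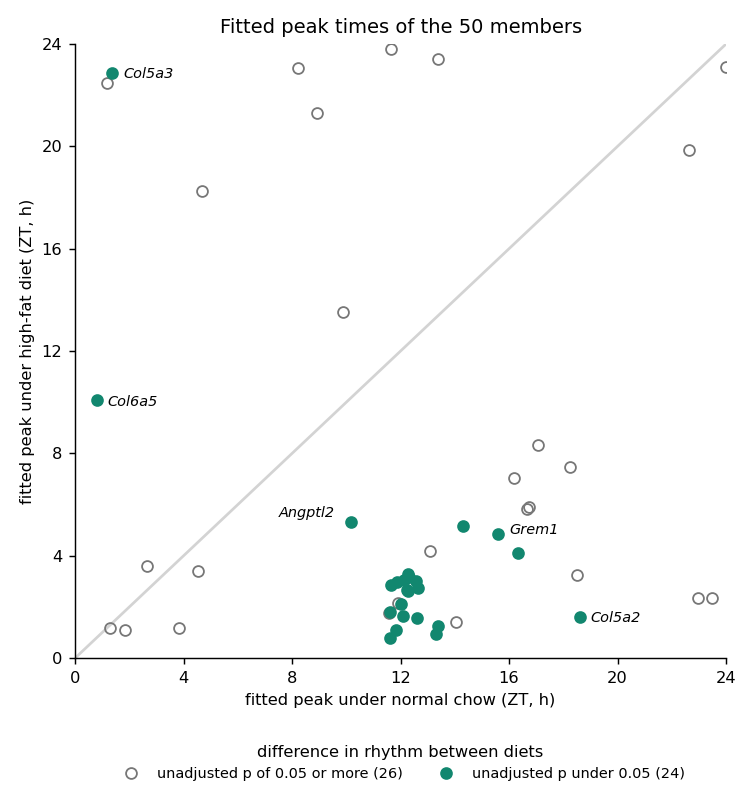
Fitted peak time under normal chow (x axis, ZT) against that under high-fat diet (y axis, ZT) for the 50 members, filled where the difference in rhythm had an unadjusted p under 0.05 in limma (24 members) and open otherwise. Of the filled points, 21 cluster at ZT 10.2 to 16.3 under chow and ZT 0.802 to 5.3 under high-fat diet, away from the grey line of equal times. Filled points were chosen by the test of the rhythm difference, so their distance from the line follows in part from that choice.

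Genes outside the members behaved in part alike. Of 20 other meningeal fibroblast genes, 9 had an unadjusted p under 0.05 for the difference in rhythm, among them Crabp2, a retinoic acid binding protein with peaks at ZT 12.2 and ZT 2.72, and the forkhead factor Foxc2 with ZT 12.2 and ZT 1.6. The same held for 11 of 33 other matrix and basement membrane proteins, led by the basement membrane linker Nid1 (limma unadjusted p = 0.00232), for 4 of 15 collagen receptors and degrading enzymes and for 0 of 24 enzymes of collagen synthesis. None was called by limma. Mural and smooth muscle markers had 6 of 12, including smooth muscle actin Acta2 with peaks at ZT 11.6 and ZT 2.57, endothelial markers 4 of 14, choroid plexus markers 2 of 6, neuron markers 2 of 8, and SCN neuron, astrocyte, liver and blood markers 0 of 10, 0 of 6, 0 of 9 and 0 of 6.

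The summed levels of these lists did not all order the groups in the same way. Other meningeal fibroblast genes summed to 227 ± 26.3 (SD, n = 3) under chow and 402 ± 119 under high-fat diet at ZT 0, and to 312 ± 42 and 265 ± 35.4 at ZT 12. Mural and smooth muscle markers summed to 168 ± 35.6 and 310.4 ± 172 at ZT 0, and to 216 ± 20.9 and 177 ± 61.1 at ZT 12, over ranges of 119 to 240.2 under chow and 109 to 505 under high-fat diet in single libraries. Other matrix and basement membrane proteins had the opposite order in their sum, 2459 ± 224 under chow and 2192 ± 233 under high-fat diet at ZT 0 and 2196 ± 576 and 2335 ± 60.3 at ZT 12. Gene by gene they did not: 27 of 33 were higher under high-fat diet at ZT 0 (47.1% of all genes tested) and 7 of 33 at ZT 12 (41.2%). Collagen synthesis enzymes had 624 ± 52.3 and 627 ± 54.8 at ZT 0 and 588 ± 9.71 and 567 ± 28.9 at ZT 12. Endothelial markers were higher under high-fat diet in the mean at both times, with 334 ± 47.1 and 350.5 ± 86.8 at ZT 0 and 343 ± 44.7 and 374 ± 47.5 at ZT 12. Choroid plexus markers were lower in the mean at both, with 176 ± 194 and 79.7 ± 39.8 at ZT 0 and 64.6 ± 7.24 and 60.8 ± 14.1 at ZT 12. At ZT 0 replicate 1 of chow had 400.2, against 76.1 and 51.8 in replicates 2 and 3. The next highest choroid plexus sums were 142 in replicate 1 of chow at ZT 4 and 126 in replicate 3 of high-fat diet at ZT 0. These are the same 3 libraries that were highest in liver markers. The part of liver RNA in the choroid plexus sums was not tested. Gene by gene, 4 of 6 choroid plexus markers were higher under high-fat diet at ZT 0 and 2 of 6 at ZT 12. In single libraries their sum ranged from 39.8 to 400.2 under chow and from 44.8 to 126 under high-fat diet, and no marker of these lists was at 0 in all libraries. The part of these cells in the members' values was not tested. The covariate above holds endothelial and mural markers only, and the mural ones varied with Dcn (median r = 0.72), so it cannot single out a cell type.

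Averaged over the day, no difference between the diets passed the test in any member. No member was called for diet over all time points (limma; 0.0132% of all genes tested were), and 0 of 50 had an unadjusted p under 0.05, against 2.56% of all genes. The difference was above 0, that is higher under high-fat diet, in 34 of 50 members, against 49.5% of all genes, with a median of 0.07 (log2), against -0.000508 over all genes. The smallest p belonged to Col18a1, a basement membrane collagen and the source of endostatin, at -0.23 ± 0.11 (SE; limma unadjusted p = 0.0506, adjusted p = 1).

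Bgn, encoding the proteoglycan biglycan, followed at 0.34 ± 0.19 (SE; limma unadjusted p = 0.0872), Col9a3, a FACIT chain, at -0.18 ± 0.10 (unadjusted p = 0.1 in limma), and Col12a1, another FACIT collagen, at 0.13 ± 0.09 (unadjusted p = 0.163 in limma). Proteoglycans were above 0 in 5 of 5 and transporters, enzyme and transcription factors in 5 of 5, while fibrillar collagens were so in 5 of 10 and FACIT collagens in 2 of 5. With the vascular covariate the difference of Bgn was -0.00742, against 0.34 without it.

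By time of day, the differences between diets had opposite signs in many members, though none passed the adjusted test. In the fit of 12 group means no member was called at any time point (limma; at ZT 12, 0.00659% of all genes were, and at the other 5 time points none), and the diet by time point terms gave no call either (0.00% of all genes), with 15 of 50 members at an unadjusted p under 0.05 against 5.09% of all genes (8 without the 3 libraries highest in liver markers, 5 with the vascular covariate). At ZT 0, 20 members had an unadjusted p under 0.05: 19 were higher under high-fat diet, against 2.23% of all genes, and Col5a3 was lower, against 1.67%. At ZT 4, 6 were higher (1.05% of all genes) and at ZT 8, 2 were higher, Cast and Col6a5 (10.8%). At ZT 12, 2 were lower, Angptl2 and Col6a2 (0.784%). At ZT 16, Col5a3 was higher (2.58%) and Grem1 lower (8.17%), and at ZT 20 none had an unadjusted p under 0.05 (3.99%). The count at ZT 0 was 10 without replicate 3 of high-fat diet at ZT 0, 13 without the 3 libraries highest in liver markers and 8 with the vascular covariate.

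The median difference over the 50 members was 0.31 (log2) at ZT 0 and 0.37 at ZT 4, and -0.47 at ZT 12, against -0.01, 0.04 and -0.02 over all genes tested. At ZT 8, 16 and 20 it was 0.13, -0.17 and 0.08, against 0.12, -0.02 and -0.06. At ZT 12 only 3 of the 50 members were above 0, Col6a5, Col8a2 and Col25a1, against 41.2% of all genes, whereas at ZT 0 34 of 50 were, against 47.1%. By library at ZT 12, the members lay a median of -0.51, 0.07 and 0.14 (log2) from their own medians under high-fat diet. Under chow these medians were -0.03, 0.36 and 0.49, each time for replicates 1, 2 and 3. The part of replicate 1 of high-fat diet in the difference at ZT 12 was not tested. At ZT 0 the difference was above 0 in all 19 named members and in 15 of 31 collagens. At ZT 4 the members' medians by library were spread, at -0.38, 0.20 and 0.67 under high-fat diet and -0.35, -0.23 and 0.05 under chow.

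**Figure D5:**
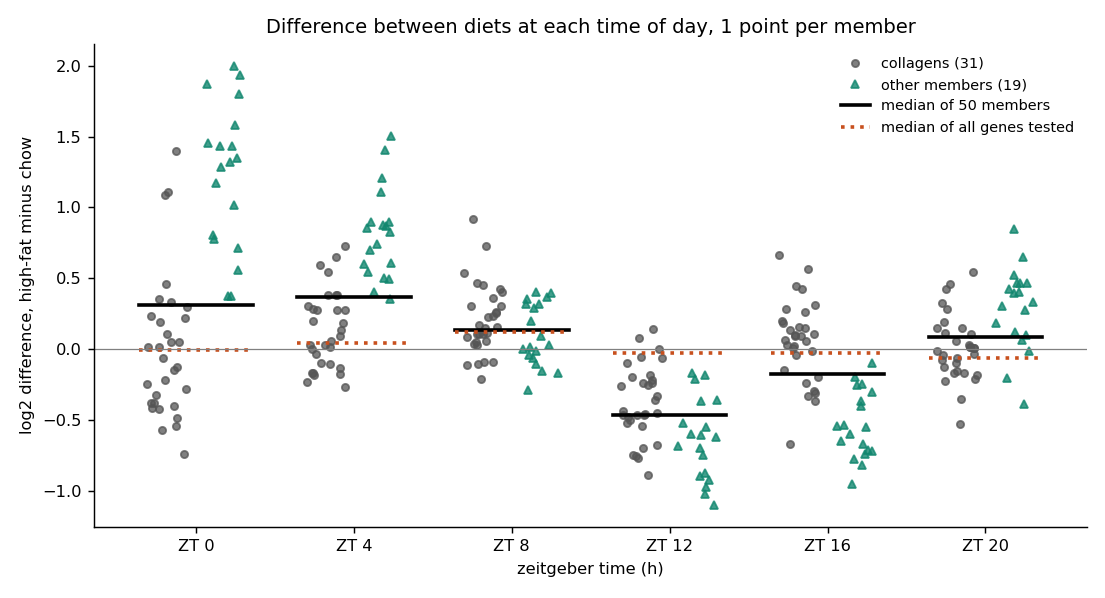
Log2 difference between high-fat diet and chow (y axis) at each time point (x axis), 1 point per member, with collagens as circles and the other 19 members as triangles, thick black bars at the members' median and dotted bars at the median of all genes tested. The triangles all lie above 0 at ZT 0 and all below 0 at ZT 12, and the circles straddle 0 at ZT 0.

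Values of single libraries separated in the same way. In 17 of 50 members all 3 high-fat libraries lay above all 3 chow libraries at ZT 0, against 3.15% of all genes tested, and in 2, Col5a3 and Col6a5, below them (3.22%). At ZT 12 all 3 high-fat libraries lay below all 3 chow libraries in 11 members, against 3.07%. At ZT 4, 5 members did not overlap with high-fat diet higher (Angptl2, Cast, Col12a1, Fbln1 and Grem1, 4.61% of all genes), and at ZT 8, 3 did so (Cast, Col23a1 and Col4a1, 14.0%). At ZT 16, 1 did not overlap with high-fat diet higher (Col5a3, 5.05%) and 4 with high-fat diet lower (Cast, Col3a1, Dcn and Grem1, 12.3%), and at ZT 20, 3 with high-fat diet higher (Bgn, Col3a1 and Col9a2, 3.17%). Both higher at ZT 0 and lower at ZT 12 were 8 members, Aldh1a2, Angptl2, Col3a1, Fmod, Igf2, Lum, Ogn and Pcolce, against 0.362% of all genes. The number was 10 on the values as deposited, 11 with median-of-ratios size factors and 15 without replicate 2 of high-fat diet at ZT 12. The 11 members lower at ZT 12 were 17 on the values as deposited and with size factors, and 31 without replicate 1 of chow at ZT 12.

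Lum had 4.22, 6.3 and 10.3 under high-fat diet at ZT 0, above the 1.45 to 2.60 of chow, and 2.65, 4.01 and 3.89 at ZT 12, below the 5.66 to 6.88 of chow. Its difference was 1.29 ± 0.35 (SE) at ZT 0 and -0.70 ± 0.35 (SE) at ZT 12 (limma unadjusted p = 0.000946 and 0.0537). Igf2 (chromosome 7, 142650766 to 142666816, minus strand) had 23.4, 49.6 and 48.1 under chow and 60.5, 98.7 and 195 under high-fat diet at ZT 0. At ZT 12 it had 77.6, 76.5 and 121 under chow and 25, 50.6 and 55.2 under high-fat diet. Replicate 3 of high-fat diet at ZT 0 was the highest of all libraries, and the groups did not overlap at either time.

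Aldh1a2 (chromosome 9, 71215789 to 71296243, plus strand) had 3.34, 8.62 and 9.76 under chow and 16.3, 27.3 and 44 under high-fat diet at ZT 0, and 16.1, 14 and 21.9 under chow and 4.82, 12.1 and 11 under high-fat diet at ZT 12. Its differences were 1.87 ± 0.67 (SE) and -0.90 ± 0.67 (SE). Ogn, encoding the proteoglycan osteoglycin (chromosome 13, 49608046 to 49624501, plus strand), had 3.19, 9.51 and 7.05 under chow and 14.8, 23.7 and 49.9 under high-fat diet at ZT 0 and 15.8, 16.4 and 27.1 under chow and 4.1, 14.6 and 11.4 under high-fat diet at ZT 12. Fmod, encoding fibromodulin, had the largest difference at ZT 0, 2.0 ± 0.72 (SE), from 3.89, 16.3 and 11.6 under chow to 22.6, 36.4 and 75.7 under high-fat diet. Pcolce, an enhancer of procollagen C-proteinase, had 3.6, 9.88 and 7.78 under chow and 12.1, 18.3 and 34.6 under high-fat diet at ZT 0 and 13.9, 11.6 and 20.2 under chow and 7.57, 11 and 10.1 under high-fat diet at ZT 12. In these 4 members, too, the highest high-fat value at ZT 0 came from replicate 3.

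Mgp, Dcn and Bgn separated at ZT 0 but not at ZT 12. Mgp had 57.9, 95 and 67 under chow and 159, 208 and 306 under high-fat diet at ZT 0, and 168, 140.2 and 216 against 76.3, 173 and 108 at ZT 12, where replicate 2 of high-fat diet lay within the chow range. Dcn had 18.5, 21.9 and 21.9 under chow and 32.8, 46.7 and 72.2 under high-fat diet at ZT 0, and 38.5, 34.5 and 40.9 under chow and 14.6, 35.9 and 23.7 under high-fat diet at ZT 12. Bgn (chromosome X, 73483602 to 73495933) had 12.6, 19.6 and 14.1 under chow and 26.2, 38 and 64.3 under high-fat diet at ZT 0, and 28.5, 26.9 and 39.3 under chow and 13.9, 28.8 and 24.2 under high-fat diet at ZT 12. The transporter Slc6a13 had 11, 16 and 12.4 under chow and 20.1, 40.6 and 60.9 under high-fat diet at ZT 0. The transcription factor Foxc1 had 1.99, 3.33 and 2.81 under chow and 3.3, 4.86 and 9.41 under high-fat diet, with 1 high-fat library of Foxc1 inside the chow range.

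Among collagens, Col1a2 had 6.73, 13.3 and 11.2 under chow and 14.2, 19.4 and 40.8 under high-fat diet at ZT 0 (difference 1.09 ± 0.35 (SE), limma unadjusted p = 0.00467), and its partner chain Col1a1 differed by 1.11 ± 0.36 (SE). Col3a1 had 1.61, 2.93 and 2.35 under chow at ZT 0 and 3.83, 3.53 and 5.87 at ZT 12, with differences of 1.40 ± 0.41 (SE) and -0.77 ± 0.41 (SE). Col5a3 had 2.23, 2.09 and 3.14 under high-fat diet at ZT 0, all below the 4.36 to 5.17 of chow (-0.74 ± 0.20 (SE), limma unadjusted p = 0.00094), and 2.83, 3.27 and 2.29 at ZT 16, all above the 1.36 to 1.67 of chow. Col4a1 and Col4a2 overlapped between diets at ZT 0 and ZT 12: Col4a2 had 12, 33.1 and 38.9 under chow and 19.3, 18.7 and 25.6 under high-fat diet at ZT 0, and 16.8, 29.6 and 25.7 under chow and 9.54, 20.5 and 21.8 under high-fat diet at ZT 12.

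Cast (chromosome 13, 74692368 to 74808810, minus strand) differed by 0.37 ± 0.15 (SE) between the diets at ZT 0. It had 5.34, 5.49 and 6.21 under chow and 7.36, 6.65 and 9.05 under high-fat diet at ZT 0, and 5.98, 5.62 and 5.54 under chow and 7.83, 6.99 and 8.97 under high-fat diet at ZT 4. At ZT 16 the order was turned, with 6.86, 7.61 and 6.89 under chow and 5.0, 6.28 and 6.26 under high-fat diet. The diets did not overlap at ZT 0, 4, 8 or 16. Cast overlaps Erap1 on the genome, so part of its value may count reads of that gene if strand was not used.

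The courses not yet given for the members described by library are, again as means of 3 libraries at ZT 0, 4, 8, 12, 16 and 20, the following. Lum under high-fat diet had means of 6.96, 5.03, 2.88, 3.52, 2.58 and 1.67 (SD 0.613 to 3.21), highest at ZT 0 and lowest at ZT 20. Angptl2 under high-fat diet had means of 4.18, 4.1, 3.57, 3.26, 2.02 and 1.53 (SD 0.328 to 1.74), highest at ZT 0 and lowest at ZT 20. Col5a3 under high-fat diet had means of 2.49, 2.93, 3.61, 2.05, 2.8 and 4.19 (SD 0.491 to 1.07), highest at ZT 20 and lowest at ZT 12. Of these 3, Lum and Angptl2 had the same highest and lowest times, and Col5a3 others. Grem1 under chow had means of 1.86, 1.35, 1.61, 2.43, 2.58 and 1.92 (SD 0.26 to 0.927), highest at ZT 16 and lowest at ZT 4. Col3a1 under chow had means of 2.29, 1.74, 1.92, 4.41, 3.19 and 0.782 (SD 0.105 to 2.22), highest at ZT 12 and lowest at ZT 20. The rhythm of Grem1 under chow had its fitted peak at ZT 15.6 and that of Col3a1 at ZT 11.6 (limma adjusted p = 0.192 and 0.297). Cast under chow had means of 5.68, 5.71, 5.74, 7.39, 7.12 and 6.03 (SD 0.0957 to 1.24), highest at ZT 12 and lowest at ZT 0. Cast under high-fat diet had means of 7.69, 7.93, 8.12, 6.22, 5.85 and 5.17 (SD 0.509 to 2.51), highest at ZT 8 and lowest at ZT 20. Further members overlap genes on the opposite strand, so that reads cannot be told apart unless strand was used: Igf2 (Igf2os), Ogn (Cenpp), Col18a1 (Slc19a1) and Col9a3 (Tcfl5). Igf2 (Gm49394), Pcolce (Fbxo24) and Crispld2 (Gm20388) overlap genes on their own strand, where strand does not help.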

How the data were processed

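Per the labels' protocols, total RNA (RNeasy Micro Kit) of the dissected region went into stranded TruSeq mRNA libraries. Trimmomatic, TopHat, Cufflinks and the builds mm10 and GRCm38 are named, per the submitters' processing notes; versions and options are not given in the sources used here. The deposited values were taken as FPKM made by the authors, from their range and the naming of Cufflinks, in 1 table per diet. From these, values were rescaled to 1000000 per library over the 24883 shared rows and analysed as log2(value + 1), which understates changes of low genes. Rows with a mean of at least 1 in the fitted libraries were tested with limma 3.58.1 (mean-variance trend) in R 4.3.3: a cosine and sine of 24 h in each diet, their interaction with diet, diet with time point as a factor, and contrasts of 12 group means. Tests were two-sided where a direction exists, with Benjamini-Hochberg adjustment over all rows tested and calls at an adjusted p under 0.05. Scripts were tested on simulated data. Gene positions come from GENCODE M21 on GRCm38.

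The members and gene lists were chosen with earlier results of these data known. Values in full are given for members called, the 8 smallest p for the rhythm difference, the 4 smallest in each other test and the 2 highest by mean in each role. Some further members are given in full because their values separated; these were chosen after their values were seen.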

Additional observations from a re-analysis of the deposited data

Results flagged for a closer look

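In 8 of 50 members, against 0.362% of all genes tested, the difference between the 2 diet groups had opposite signs at 2 times of day: all 3 high-fat libraries lay above all 3 chow libraries at ZT 0 and below all 3 at ZT 12. For Aldh1a2 the log2 difference was 1.87 at ZT 0 and -0.90 at ZT 12. For Angptl2 the log2 difference was 0.78 at ZT 0 and -0.62 at ZT 12. For Col3a1 the log2 difference was 1.40 at ZT 0 and -0.77 at ZT 12. For Fmod the log2 difference was 2.0 at ZT 0 and -0.92 at ZT 12. For Igf2 the log2 difference was 1.44 at ZT 0 and -1.10 at ZT 12. For Lum the log2 difference was 1.29 at ZT 0 and -0.70 at ZT 12. For Ogn the log2 difference was 1.94 at ZT 0 and -1.02 at ZT 12. For Pcolce the log2 difference was 1.45 at ZT 0 and -0.60 at ZT 12. The difference between these 2 time points was not tested by itself. The 5 diet by time point terms, which include it, gave unadjusted p of 0.00163 for Lum and 0.0574 for Aldh1a2, the lowest and the highest of the 8 (limma adjusted p = 0.72 for both).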

How the results depend on the processing

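With chow, 3 members were called rhythmic, against 1 with no filter on low values, 1 with the endothelial and mural score as a covariate and 1 to 3 without 1 library at a time. Members at an unadjusted p under 0.05 numbered 18 there, 4 with the score and 8 to 20 without 1 library. Under high-fat diet the number was 4, against 9 on values as deposited, 15 for any difference among the 6 time points and 4 to 14 without 1 library. For the rhythm difference it was 24, against 5 with the score, 10 without the 3 libraries highest in liver markers (chosen after seeing the data) and 18 to 25 without 1 library. For diet over all time points it was 0, against 1 with a pseudocount of 0.1, 1 as deposited, 1 with size factors, 1 with the replicate block, 3 with the score, 2 without the liver-marker libraries and 0 to 1 without 1 library. For diet by time point it was 15, against 5 with the score, 8 without the liver-marker libraries and 10 to 22 without 1 library. At ZT 0 it was 20, against 8, 13 and 10 to 22 in the same order, and summed over time points 32, with 25 to 50 without 1 library. Non-overlapping members numbered 11 lower at ZT 12 (17 as deposited, 17 with size factors, 11 to 31 without 1 library), 17 higher at ZT 0 (17 to 21) and 8 with both (8 to 15). The difference of Bgn over all time points was -0.00742 with the score, against 0.34 in the main fit. The cause of these changes was not tested.

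Replicate numbers were not taken as pairs, since the labels state no pairing and only 9 of 18 pairs with the same number had a correlation of deviations over 0.1 (-0.28 to 0.32). Still, 12 of the 18 correlated best with their own number, a hint from the data that some numbers share something. With the replicate block, 2 members were called under chow, 20 had an unadjusted p under 0.05 there, 6 under high-fat diet, 24 for the rhythm difference and 21, against 15, for diet by time point.

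No member was called for high-fat rhythm, rhythm difference or diet under any alternative run. Read depth is unknown, so what it limits cannot be stated.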

Other observations

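Averaged over all time points, none of the listed genes outside the members was called for diet by limma (adjusted p = 1 for those named here). Several lists lay largely on 1 side, whereas 49.5% of all genes tested were higher under high-fat diet. All 14 endothelial markers were higher under high-fat diet, 6 of them at an unadjusted p under 0.05 in limma, among them the glucose transporter Slc2a1 (log2 difference 0.14) and the adhesion molecule Pecam1 (0.26). All 12 mural and smooth muscle markers were higher as well, 2 of them, Acta2 (0.51) and Myh11 (0.48), at an unadjusted p under 0.05. Of 33 other matrix and basement membrane proteins 30 were higher, 6 at an unadjusted p under 0.05, including fibronectin, Fn1 (0.38), and thrombospondin 1, Thbs1 (0.30). The 20 other meningeal fibroblast genes were higher in 18 and none had an unadjusted p under 0.05, against 2.56% of all genes tested. Haemoglobin rows Hba-a1 and Hba-a2, with 2 rows each, were also higher, by 0.42 to 1.07. So were all 9 microglia and macrophage markers, 5 of 6 astrocyte markers and 8 of 10 SCN neuron markers. Neuron markers were higher in 3 of 8, and oligodendrocyte and precursor markers in 4 of 10.

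Mmp14, the membrane collagenase called rhythmic under chow, had its fitted peak at ZT 0.93 under chow and ZT 23.9 under high-fat diet (limma adjusted p = 0.0181 and 0.124), the latter not called. No difference in its rhythm between diets was detected (limma unadjusted p = 0.57).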
